A study of Mus musculus with 18 samples.

Results

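Replication of the genome needs a helicase to open the DNA, polymerases to copy it and deoxynucleotides to build it from. The measurements below follow 48 genes of this machinery and of nucleotide synthesis in mouse microglia, the resident macrophages of the brain. The genes were given as a list of symbols, and a gene was read from the probe sets annotated to its symbol alone, the brightest over all arrays where there were several. Of the 48 genes, 46 were measured in this way, out of 22180 genes in all. Rfc4, a clamp loader subunit, and Ccne2, a cyclin E, were not measured, because their probe sets carried several symbols.

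The microglia came from untreated C57Bl/6 mice, were separated on a Percoll gradient and were sorted as CD45 and CD11b positive and Gr1 negative cells. They were taken from the corpus callosum, a white matter tract, and from the cortex, on postnatal days 3 (P3) and 7 (P7) and from adults. Each of the 6 groups held 3 arrays, 18 in all, and the labels give no mutation and no treatment for any of them. The labels give neither the sex of the animals nor the number of animals per array nor the age of the adults in days, so the p-values measure the spread between these samples only.

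A cell prepares to copy its DNA by loading the MCM helicase onto origins with the help of the origin recognition complex, Cdc6 and Cdt1. Geminin, encoded by Gmnn, blocks a further round of loading. Cyclin E with its kinase and the E2F transcription factors open S phase, Cdc45 and the GINS complex turn the MCM ring into an active helicase, and primase and the polymerases then copy the strands around the sliding clamp PCNA. Transcripts of most of these genes are known to be made mainly in cycling cells, from promoters bound by E2F factors. Microglia are known to divide in the first weeks after birth and to divide little in the healthy adult brain.

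Values are log2 expression levels after robust multi-array averaging, so a difference of 1 is a doubling. For a level, the value after ± is a standard deviation over the 3 arrays of the group. For a difference, it is a standard error from the gene's variance in limma, pooled over all groups and moderated by eBayes. This standard error is therefore the same for a gene in both regions and does not show the spread of the compared groups alone. A gene was called changed at an adjusted p under 0.05 in limma, with Benjamini-Hochberg adjustment over all 22180 genes. Levels of different genes come from different probes and are not compared with each other. The arrays had medians of 5.58 to 5.74. Of the 9 microglial markers, the mean level lay between 10.33 and 11.42 on every array. The means of the marker lists for neurons, astrocytes, oligodendrocytes, their precursors, vessels, lymphocytes, monocytes, neutrophils and red cells lay between 4.55 and 6.68. Those of the border macrophage list reached higher, from 5.39 to 7.27, with the highest on replicate 3 of P3 callosum. The replicate 1 arrays of both adult groups had the lowest mean correlation with the other arrays, 0.953 in callosum and 0.956 in cortex, against 0.961 or more elsewhere. The neutrophil marker mean was highest on replicate 3 of P3 callosum at 6.47, followed by replicate 1 of P7 callosum at 5.94 and replicate 1 of P3 cortex at 5.90.

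The replication genes were lower in adult than in P7 microglia in both regions. In callosum, 41 of the 46 were called lower and 0 higher, where 10.7% of all genes were called lower and 6.56% higher. In cortex, 42 of the 46 were called lower and 0 higher, against 6.15% and 4.05% of all genes. The median difference of the 46 was -1.04 in callosum and -1.25 in cortex, and that of all genes was 0.05 in callosum and 0.03 in cortex. Each of the 46 differences lay below 0 in both regions, from -5.22 to -0.10 in callosum and from -5.31 to -0.19 in cortex. The mean over the 46 genes ran from 7.01 to 7.36 on the 6 arrays at P3, from 7.09 to 7.53 at P7 and from 5.92 to 6.02 in the adult.

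Between the regions, 39 genes were called in both, Gins4 and Pole in callosum alone, Rfc5, Rpa2 and Tk1 in cortex alone, and Gins3 and Orc1 in neither. Among the 39, 24 fell at least 2-fold in both regions and 7 at least 4-fold in both. Of all genes, no more than the 6.15% called lower in cortex can be called lower in both regions. The share of all genes within the fold limits was not counted. The 3 adult arrays all lay below the 3 P7 arrays for 41 of the 46 genes in callosum and for 43 in cortex, against 17% and 13.7% of all genes. The group mean fell below the median of all values, 5.77, for 18 of the 46 genes in adult callosum and 19 in adult cortex, and for 0 in either P7 group. At such low levels, signal and background were not separated, which leaves the size of those differences uncertain. In RNA from sorted cells, fewer cells in cycle and less of a transcript per cell cannot be told apart.

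**Figure D1:**
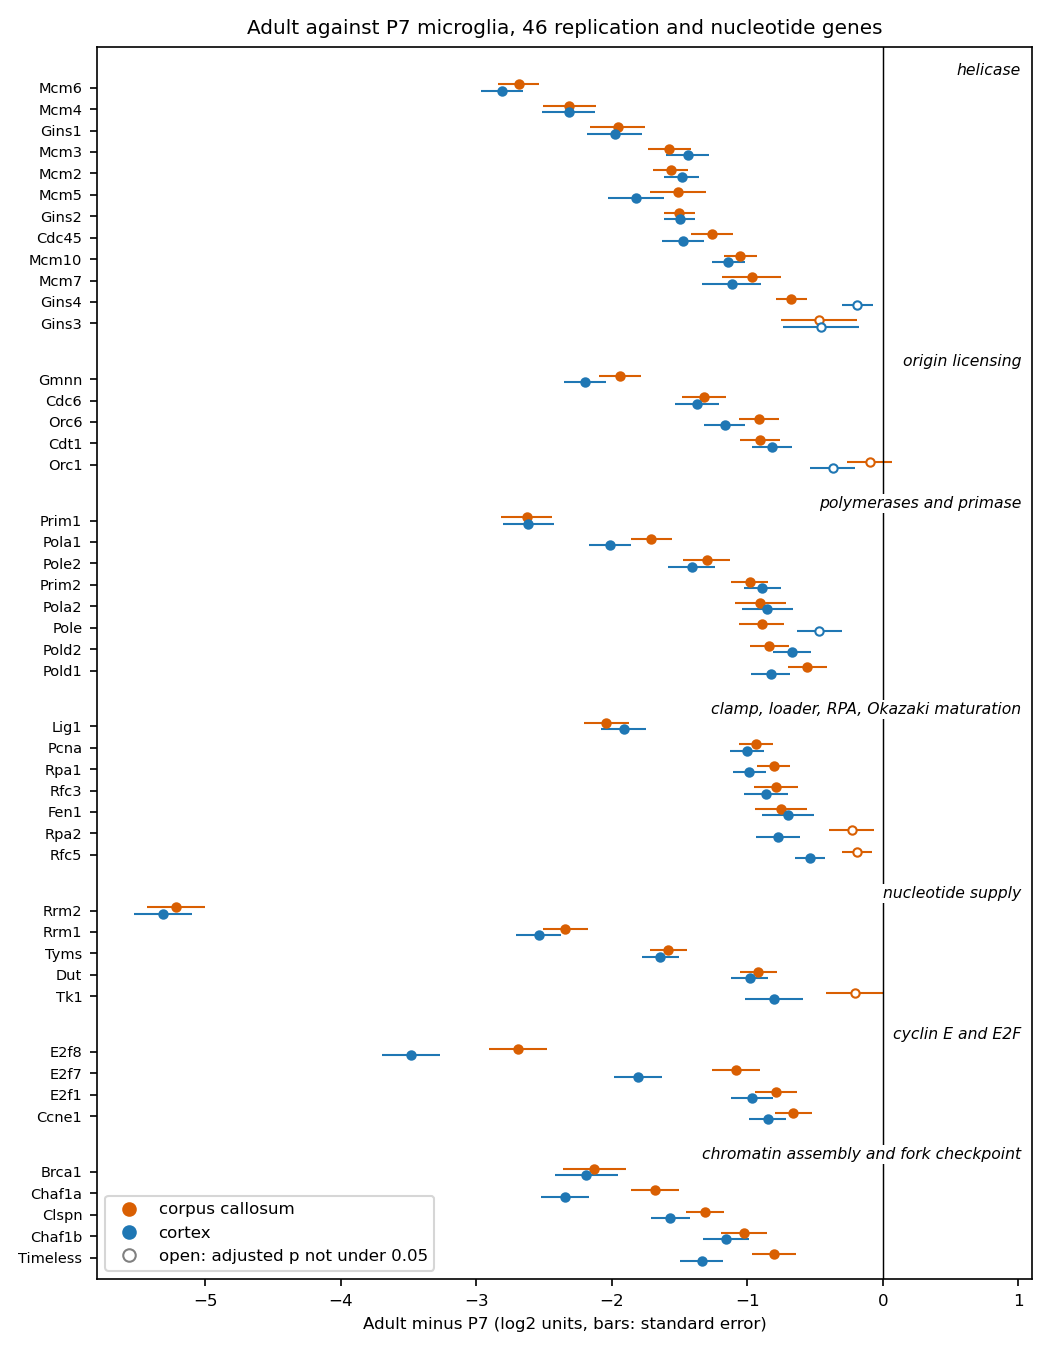
Difference between adult and P7 microglia (log2, adult minus P7) for each of the 46 measured genes, with bars of 1 standard error, by role, in corpus callosum and in cortex. Every point lies left of 0, with Rrm2 lowest at -5.22 in callosum and -5.31 in cortex, and Gins3 and Orc1 not called in either region.

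Sequence around the start sites was searched for motifs of cell cycle promoters. RefSeq promoter windows of the mouse assembly GRCm38.p6, from 250 bases before to 50 after the start site, were matched by symbol for 39 of the 46 genes. Only the first window listed per gene was searched, and for some genes its start site lies inside the annotated gene. An E2F motif, searched as TTTCCCGC, TTTGGCGC, TTTCGCGC or TTTGCCGC on either strand, was present in 14 of the 39 windows, which is 35.9%. It was present in 2.32% of all 27025 RefSeq windows, of genes measured on the arrays or not. In 5 of the 14, Cdt1, Clspn, Mcm3, Pold1 and Pole2, these letters stood only after the start site. The box bound by NF-Y, CCAAT on either strand, was present in 24 of the 39, which is 61.5%, against 37.9% of all windows. The letters TTTGAA, the core of the cell cycle homology region, occurred in 5 of the 39, or 12.8%, against 18.1% of all. Both the E2F and the CCAAT letters were found in 10 windows, or 25.6%, against 1.01% of all. Over the 16990 windows of genes measured on the arrays, the shares were 2.93% for E2F, 38.5% for CCAAT, 15.8% for TTTGAA and 1.25% for E2F with CCAAT.

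The stretches below show the 160 bases before the start site of genes that the results turn on, 5′ to 3′ on the strand of the gene, with E2F and CCAAT letters in capitals. They are Mcm6 and Mcm5, helicase subunits with overlapping E2F motifs; Cdc6, the loading factor; Rrm2, which had the largest difference; and Orc1 and Gins3, which hold both motifs and were not called.
Mcm6: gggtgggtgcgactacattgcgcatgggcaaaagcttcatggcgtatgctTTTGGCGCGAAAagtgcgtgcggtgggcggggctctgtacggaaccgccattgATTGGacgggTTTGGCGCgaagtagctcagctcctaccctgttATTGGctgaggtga
Mcm5: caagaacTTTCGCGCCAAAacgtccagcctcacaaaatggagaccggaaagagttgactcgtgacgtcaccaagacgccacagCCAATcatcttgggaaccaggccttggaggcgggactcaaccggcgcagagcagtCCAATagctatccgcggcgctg
Cdc6: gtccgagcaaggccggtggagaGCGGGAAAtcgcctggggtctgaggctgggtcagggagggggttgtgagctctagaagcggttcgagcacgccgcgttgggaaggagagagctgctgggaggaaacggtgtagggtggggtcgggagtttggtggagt
Rrm2: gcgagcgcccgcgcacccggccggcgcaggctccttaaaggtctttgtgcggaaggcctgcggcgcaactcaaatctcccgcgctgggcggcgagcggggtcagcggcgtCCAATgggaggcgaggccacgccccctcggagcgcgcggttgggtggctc
Orc1: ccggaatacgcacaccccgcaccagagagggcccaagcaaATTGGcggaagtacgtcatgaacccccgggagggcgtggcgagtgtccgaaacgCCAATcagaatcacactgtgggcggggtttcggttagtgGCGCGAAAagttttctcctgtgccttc
Gins3: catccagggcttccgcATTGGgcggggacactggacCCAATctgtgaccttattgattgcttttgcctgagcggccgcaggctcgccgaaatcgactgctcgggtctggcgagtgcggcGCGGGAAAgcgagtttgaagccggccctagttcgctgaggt

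These lie at chr1:128359706-128359865 on the minus strand for Mcm6, and on the plus strand at chr8:75109349-75109508 for Mcm5, chr11:98907991-98908150 for Cdc6, chr12:24708094-24708253 for Rrm2, chr4:108579294-108579453 for Orc1 and chr8:95633399-95633558 for Gins3. Counted at the first base of the motif along the gene's strand, the E2F letters stood 110, 106 and 47 bases before the start site in Mcm6, and the first pair overlaps on opposite strands. In Mcm5 the overlapping pair stood 153 and 149 bases before the start. Cdc6 held the motif at 138 bases, Gins3 at 41 and Orc1 at 27. Rrm2 had no E2F letters of these forms in its window and a CCAAT box 50 bases before the start. The annotated genes begin before the start sites used here for Orc1, at chr4:108575705, Cdc6, at chr11:98907709, and Mcm5, at chr8:75109468. The sequence before those gene starts was not searched separately, so these motif positions belong to the start site of the window only. A match is a description of the letters, and the arrays do not measure binding there.

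Genes with the E2F letters and genes without them were both lower in adult microglia. Of the 14 with the letters, 12 were called lower in callosum, with a median difference of -1.19, and 12 in cortex, with a median of -1.39. Of the 25 without them, 22 were called lower in callosum, with a median of -0.94, and 25 in cortex, with a median of -1.16. For the CCAAT box, the 24 holders had medians of -1.29 in callosum and -1.48 in cortex, and the 15 without it -0.90 and -0.97. These medians are descriptions, and the differences between them were not tested.

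Among the helicase genes, 11 of 12 fell in adult callosum and 10 of 12 in adult cortex. Mcm6 and Mcm4, subunits of the ring that unwinds DNA, had the largest differences. In callosum, Mcm6 had 5.70, 5.61 and 5.97 on the adult arrays, against 8.16, 8.63 and 8.57 on the P7 arrays. In cortex, the adult arrays read 6.13, 5.92 and 5.85 and the P7 arrays 8.76, 8.82 and 8.75. The adult arrays lay below every P7 array by more than 2 log2 units in each region. The difference was -2.69 ± 0.15 in callosum (adjusted p = 1.20e-09) and -2.81 ± 0.15 in cortex (adjusted p = 5.32e-10).

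Mcm4 fell by nearly the same amount in the regions. On the callosum arrays it read 5.72, 5.48 and 5.45 in the adult, against 7.62, 8.005 and 7.97 at P7. On the cortex arrays it read 5.65, 5.95 and 5.66 in the adult, against 7.95, 8.06 and 8.21 at P7. The groups did not overlap in either region, with differences of -2.31 ± 0.20 in callosum (adjusted p = 1.24e-07) and -2.32 ± 0.20 in cortex (adjusted p = 1.22e-07).

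All 6 subunits of the MCM ring fell in both regions. The other ring subunits differed by -1.56 in callosum and -1.48 in cortex for Mcm2, by -1.58 in callosum and -1.44 in cortex for Mcm3, by -1.52 in callosum and -1.82 in cortex for Mcm5 and by -0.97 in callosum and -1.11 in cortex for Mcm7. Mcm10, which helps to start the active helicase, fell by 1.05 in callosum and by 1.14 in cortex. Cdc45, the partner that rides with the ring, differed by -1.26 in callosum and -1.48 in cortex.

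The 4 subunits of GINS, the complex that completes the active helicase, did not give the same calls. Gins1 and Gins2 fell in both regions, with differences of -1.96 in callosum and -1.98 in cortex for Gins1 and of -1.504 in callosum and -1.499 in cortex for Gins2. Gins4 read 7.40, 7.43 and 7.48 in adult callosum, against 8.14, 8.16 and 8.05 in P7 callosum, and these arrays did not overlap. In cortex its adult arrays read 7.66, 7.96 and 7.89 and its P7 arrays 7.90, 7.99 and 8.18, which overlapped. Its difference was -0.67 ± 0.11 in callosum (adjusted p = 3.15e-04) and -0.19 ± 0.11 in cortex (adjusted p = 0.402).

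Gins3 passed in neither region. Its differences were -0.47 ± 0.28 in callosum (adjusted p = 0.289) and -0.46 ± 0.28 in cortex (adjusted p = 0.404). The intervals ran from -1.06 to 0.12 in callosum and from -1.05 to 0.13 in cortex, so a change of up to about a log2 unit is within the error.

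Origin licensing genes fell for 4 of 5 members in callosum and 4 of 5 in cortex. Gmnn, the inhibitor of loading, changed most. Its adult callosum arrays read 5.26, 5.15 and 5.77, against 7.18, 7.44 and 7.37 at P7. In adult cortex it read 5.09, 5.41 and 5.44, against 7.53, 7.65 and 7.35 at P7. No adult array reached a P7 array, and the differences were -1.94 ± 0.15 in callosum (adjusted p = 6.03e-08) and -2.20 ± 0.15 in cortex (adjusted p = 1.06e-08).

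Cdc6, which brings the MCM ring to the origin, read 4.94, 5.13 and 5.30 in adult callosum, against 6.42, 6.49 and 6.43 in P7 callosum. In cortex its levels were 5.48, 5.04 and 5.28 in the adult and 6.22, 6.90 and 6.81 at P7. The P7 cortex arrays were more spread than the others but stayed above all adult arrays, with differences of -1.32 ± 0.16 in callosum (adjusted p = 1.14e-05) and -1.37 ± 0.16 in cortex (adjusted p = 1.04e-05).

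Cdt1, the other loading factor, fell by 0.91 in callosum and by 0.82 in cortex, and Orc6, a subunit of the origin recognition complex, by 0.91 and 1.17. Orc1, the subunit of that complex whose level follows the cell cycle in cultured cells, had differences of -0.10 ± 0.16 in callosum (adjusted p = 0.751) and -0.37 ± 0.16 in cortex (adjusted p = 0.200). In callosum its adult arrays read 6.05, 5.74 and 5.67 and its P7 arrays 5.98, 6.12 and 5.65. In cortex the adult arrays read 5.68, 5.63 and 5.84 and the P7 arrays 6.15, 6.02 and 6.10. The cortex arrays did not overlap and the callosum arrays did, and neither difference passed the test.

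All 8 polymerase and primase genes fell in callosum and 7 of 8 in cortex. Prim1, the catalytic subunit of primase, which lays down the RNA primers, had 4.52, 4.12 and 4.69 in adult callosum, against 6.63, 7.29 and 7.30 in P7 callosum. In adult cortex it had 4.94, 5.31 and 4.94, against 7.64, 7.65 and 7.76 in P7 cortex. The adult arrays lay far below the P7 arrays in both regions, with differences of -2.63 ± 0.19 in callosum (adjusted p = 1.97e-08) and -2.62 ± 0.19 in cortex (adjusted p = 1.45e-08).

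Pola1, the catalytic subunit of polymerase alpha, which extends the primer, read 5.26, 5.19 and 5.82 in adult callosum and 7.01, 7.13 and 7.25 in P7 callosum. Its cortex levels were 5.61, 5.36 and 5.71 in the adult and 7.78, 7.497 and 7.43 at P7. The ages did not overlap, and the differences were -1.71 ± 0.15 in callosum (adjusted p = 2.72e-07) and -2.01 ± 0.15 in cortex (adjusted p = 3.18e-08).

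The other subunits of the alpha-primase complex fell less, Pola2 by 0.90 in callosum and 0.85 in cortex, and Prim2 by 0.98 and 0.89. Of polymerase delta, which copies the lagging strand, Pold1 differed by -0.56 in callosum and -0.83 in cortex and Pold2 by -0.84 in callosum and -0.67 in cortex, and the callosum call of Pold1 was lost without P7 replicate 2 or adult replicate 3. Of polymerase epsilon, which copies the leading strand, Pole2 differed by -1.30 in callosum and -1.41 in cortex.

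Pole, the catalytic subunit of epsilon, gave values that depend on the probe set. The brighter probe set had differences of -0.90 ± 0.16 in callosum (adjusted p = 6.35e-04) and -0.47 ± 0.16 in cortex (adjusted p = 0.0845), and the dimmer had -1.81 in callosum and -2.42 in cortex. With the most variable probe set of each gene instead of the brightest, Pole was called in cortex as well, as it was without adult cortex replicate 1, and its lowest adjusted p over the alternatives was 4.62e-08.

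For the clamp, its loader, the single-strand binding proteins and the enzymes that join Okazaki fragments, 5 of 7 measured genes fell in callosum and 7 of 7 in cortex. Lig1, the ligase that seals the fragments, had 6.09, 6.05 and 6.34 in adult callosum, against 7.93, 8.40 and 8.26 in P7 callosum. In cortex it had 6.48, 6.77 and 6.70 in the adult, against 8.68, 8.58 and 8.42 at P7. All adult arrays were lower than all P7 arrays, with differences of -2.04 ± 0.17 in callosum (adjusted p = 8.70e-08) and -1.91 ± 0.17 in cortex (adjusted p = 1.99e-07).

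Pcna, the sliding clamp, read 9.74, 9.73 and 9.67 in adult callosum, against 10.52, 10.72 and 10.72 in P7 callosum, and 10.02, 9.67 and 9.61 in adult cortex, against 10.72, 10.78 and 10.81 in P7 cortex. The arrays of the ages were separate, and the differences were -0.94 ± 0.13 in callosum (adjusted p = 3.10e-05) and -1.001 ± 0.13 in cortex (adjusted p = 2.16e-05), close to a halving of the level.

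Rfc3 of the clamp loader fell by 0.79 in callosum and 0.86 in cortex, and Rpa1, the large subunit of the protein that coats single strands, by 0.81 and 0.99. A second Rpa1 probe set gave -0.94 in callosum and -1.21 in cortex. Fen1, the nuclease that trims the flaps between fragments, fell by 0.75 in callosum (adjusted p = 0.00936) and by 0.70 in cortex (adjusted p = 0.0230), and the call was lost in callosum without adult replicate 1 and in cortex without P7 replicate 2 or 3 or adult replicate 1. A second, dim Fen1 probe set gave -0.12 in callosum and -0.53 in cortex. Rfc5 and Rpa2 passed in cortex but not in callosum. The differences were -0.19 ± 0.11 in callosum (adjusted p = 0.269) and -0.54 ± 0.11 in cortex (adjusted p = 0.00296) for Rfc5 and -0.23 ± 0.16 in callosum (adjusted p = 0.387) and -0.78 ± 0.16 in cortex (adjusted p = 0.00354) for Rpa2.

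Nucleotide supply held the largest single difference. Rrm2, the small subunit of ribonucleotide reductase, which makes deoxynucleotides from ribonucleotides, had 3.86, 4.07 and 4.79 in adult callosum, against 9.02, 9.61 and 9.74 in P7 callosum. In cortex the adult arrays read 4.51, 4.64 and 4.48 and the P7 arrays 9.83, 9.77 and 9.97. No adult array came within 4 log2 units of a P7 array of its region.

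The Rrm2 differences were -5.22 ± 0.22 in callosum (adjusted p = 8.82e-11) and -5.31 ± 0.22 in cortex (adjusted p = 3.22e-11). A second, dimmer Rrm2 probe set gave -1.85 in callosum and -2.03 in cortex, so the direction was shared and the size was not. Rrm1, the large subunit of the enzyme, read 6.21, 6.21 and 6.13 in adult callosum, against 8.12, 8.70 and 8.76 at P7. In adult cortex it read 6.13, 6.54 and 6.22, against 8.60, 8.92 and 8.98 at P7. The groups were separate in both regions, with differences of -2.34 ± 0.17 in callosum (adjusted p = 1.65e-08) and -2.54 ± 0.17 in cortex (adjusted p = 4.45e-09).

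Tyms, thymidylate synthase, fell by 1.58 in callosum and by 1.64 in cortex. Dut, which breaks down dUTP and so keeps uracil out of DNA, fell by 0.92 and 0.98. A second, dim Dut probe set, which read below the median of all values in the P7 and adult groups, gave -0.0208 and -0.13. Tk1, the thymidine kinase of the salvage route, was called in cortex only. Its values were -0.20 ± 0.21 in callosum (adjusted p = 0.582) and -0.80 ± 0.21 in cortex (adjusted p = 0.0196), and the cortex call was lost without P7 cortex replicate 2 or 3 or adult cortex replicate 1.

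Of the cyclin E and E2F genes, the 4 measured ones fell in both regions. E2f8, a repressing E2F factor, read 5.001, 4.88 and 4.63 in adult callosum, against 7.17, 7.71 and 7.72 in P7 callosum. In cortex it read 5.05, 4.24 and 4.25 in the adult and 7.66, 8.17 and 8.15 at P7. It was separate between the ages in both, with differences of -2.69 ± 0.21 in callosum (adjusted p = 5.77e-08) and -3.48 ± 0.21 in cortex (adjusted p = 1.95e-09).

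E2f7, its relative and also a repressor, had 4.99, 5.20 and 4.82 in adult callosum, against 5.63, 6.49 and 6.15 in P7 callosum. Adult cortex had 4.91, 4.89 and 4.40, against 6.48, 6.55 and 6.58 in P7 cortex. The adult arrays were lower throughout, with differences of -1.08 ± 0.18 in callosum (adjusted p = 2.50e-04) and -1.81 ± 0.18 in cortex (adjusted p = 1.08e-06). E2f1, an activating factor, fell by 0.79 in callosum and 0.97 in cortex, and Ccne1, a cyclin E, by 0.66 and 0.85.

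Chromatin assembly and fork checkpoint genes fell for all 5 members in both regions. Chaf1a, the large subunit of the factor that places histones on new DNA, read 5.04, 5.04 and 4.82 in adult callosum, against 6.35, 6.81 and 6.79 in P7 callosum. In adult cortex it read 4.86, 4.88 and 4.73, against 7.31, 7.04 and 7.16 in P7 cortex. No arrays of the ages overlapped, and the differences were -1.68 ± 0.18 in callosum (adjusted p = 1.80e-06) and -2.35 ± 0.18 in cortex (adjusted p = 2.75e-08).

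Brca1, which protects and repairs broken forks, had 4.60, 3.64 and 4.30 in adult callosum, against 5.85, 6.501 and 6.56 in P7 callosum. Its cortex arrays read 4.498, 4.63 and 3.99 in the adult and 6.25, 6.73 and 6.72 at P7. Here too all adult values were the lower ones, with differences of -2.13 ± 0.23 in callosum (adjusted p = 2.60e-06) and -2.19 ± 0.23 in cortex (adjusted p = 2.27e-06). Chaf1b, the partner of Chaf1a, differed by -1.03 in callosum and -1.16 in cortex, Clspn, a mediator of the fork checkpoint, by -1.32 in callosum and -1.57 in cortex, and Timeless, which stabilises stalled forks, by -0.80 in callosum and -1.34 in cortex.

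**Figure D2:**
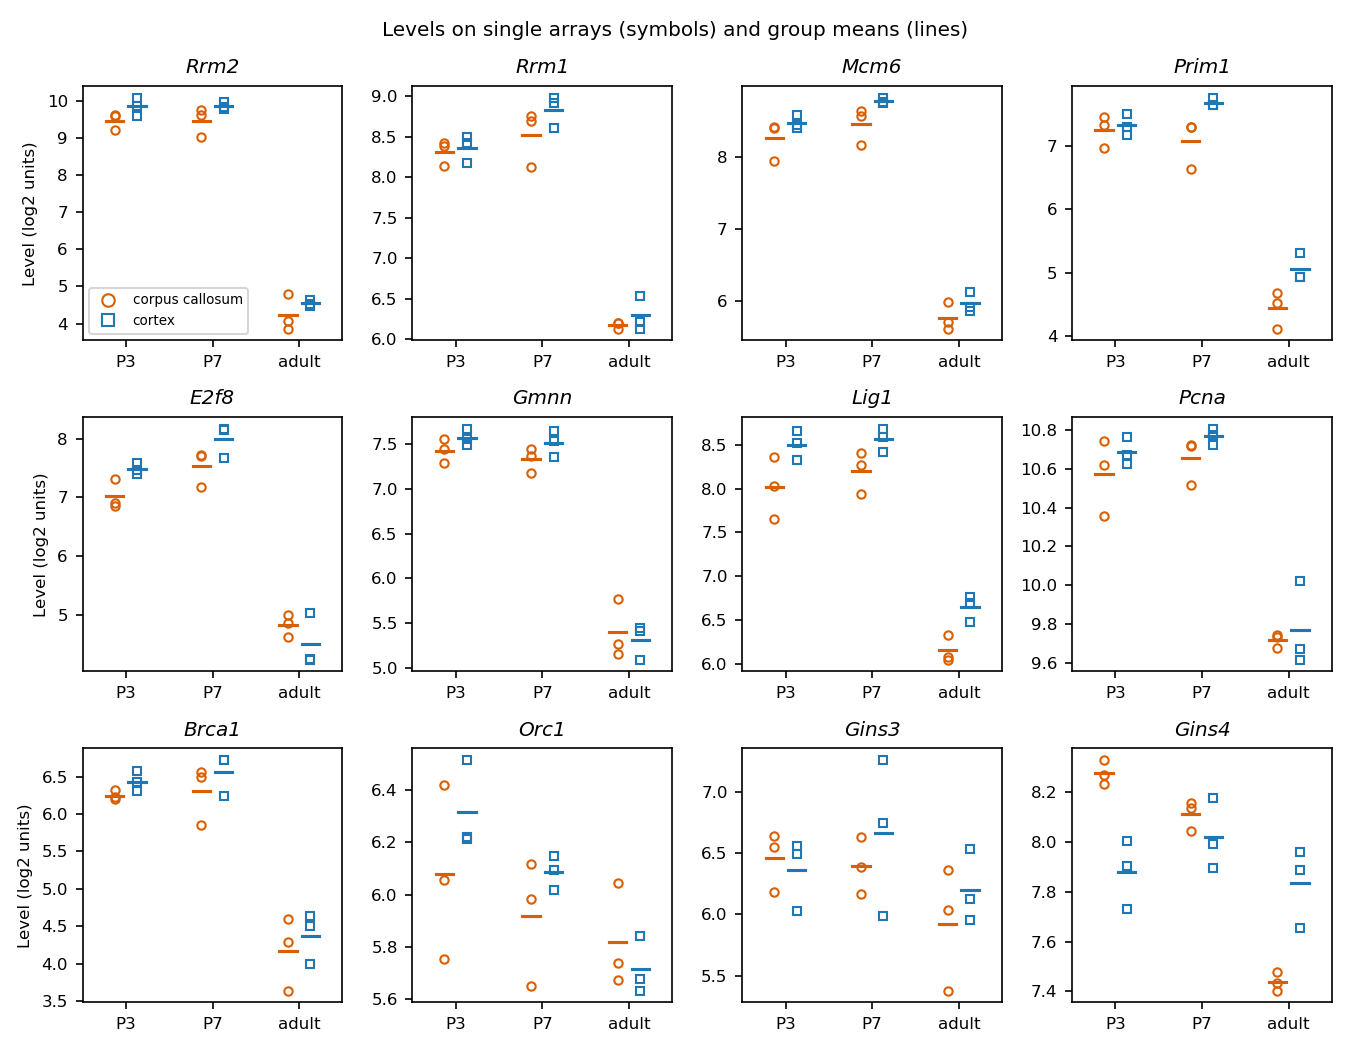
Level on each array (log2) of genes from each role at P3, P7 and in the adult, in corpus callosum and cortex, with group means. The adult arrays lie below the P7 arrays of their region except for Gins3, for Orc1 in callosum and for Gins4 in cortex, where they overlap; symbols of nearly equal value cover each other.

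Related genes outside the list of 48 were lower in the adult as well. Of 30 other replication factors, 18 fell in callosum and 18 in cortex, with 0 higher and medians of -0.77 in callosum and -0.58 in cortex. Among them were Atad5, which unloads the clamp (-2.16 in callosum and -2.46 in cortex), and in callosum Tipin, the partner of Timeless, and Dbf4, which activates a replication kinase (-2.19 and -2.05). In cortex, Wdhd1, which links helicase and polymerase, and Ticrr, needed to start the helicase, had differences of -2.76 and -2.13. Of 12 recombination and fork repair genes, 11 fell in callosum and 12 in cortex, with medians of -1.01 in callosum and -1.20 in cortex. The 3 with the largest differences were Brip1 (-1.56 in callosum and -2.22 in cortex), Mms22l (-2.05 in callosum and -1.58 in cortex) and Rad51ap1 (-1.52 in callosum and -1.51 in cortex).

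Other nucleotide synthesis genes were divided. Of 23 measured, 12 fell in each region, with medians of -0.47 in callosum and -0.41 in cortex. Among them were Nme1, a nucleoside diphosphate kinase (-2.18 in callosum and -1.43 in cortex), Dck, which salvages deoxycytidine (-1.30 in callosum and -1.10 in cortex), and Shmt2, a mitochondrial enzyme of folate metabolism (-1.37 in callosum and -1.05 in cortex). Samhd1, which breaks down deoxynucleotides, rose in cortex by 0.48 ± 0.12 (adjusted p = 0.00938) and had 0.30 ± 0.12 in callosum (adjusted p = 0.0838). Tk2, the mitochondrial thymidine kinase, rose by 0.55 ± 0.16 in callosum and 0.54 ± 0.16 in cortex. Of 10 further E2F and RB family genes, 3 fell in each region: Tfdp1, the partner of E2F factors (-1.51 in callosum and -1.76 in cortex), Rbl1, a relative of RB (-1.10 in callosum and -1.39 in cortex), and E2f6, a repressor (-0.83 in callosum and -0.86 in cortex). Markers of dividing cells moved with the list: Top2a, which untangles chromosomes, differed by -4.45 in callosum and -4.99 in cortex, Mki67, a marker of cycling cells, by -3.997 in callosum and -4.61 in cortex, and Cdk1, the mitotic kinase, by -3.31 in callosum and -3.53 in cortex.

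Markers of cells moved between the ages as well. Of 9 microglial markers, 7 were higher in adult callosum and 4 in adult cortex, and the list mean on the arrays ran from 11.08 to 11.42 in the adult and from 10.40 to 10.91 at P7. Of 7 border macrophage markers, 5 were lower in callosum and 4 in cortex, with array means of 5.39 to 5.57 in the adult and 6.68 to 7.12 at P7. Mrc1, a mannose receptor of that list, differed by -4.44 in callosum and -4.23 in cortex. Neural precursor markers were lower for 2 of 8 in callosum and 1 of 8 in cortex, with array means of 5.14 to 5.41 in the adult and 5.42 to 5.68 at P7. Neuron markers were lower for 0 of 9 in callosum and 3 of 9 in cortex, with means of 5.37 to 5.62 in the adult and 5.69 to 5.95 at P7. Erythroid markers were lower for 2 of 4 in each region, with means of 5.66 to 5.94 in the adult and 5.91 to 6.13 at P7, and oligodendrocyte precursor markers for 0 of 7 in each. Astrocyte array means went the other way, with 5.54 to 5.82 in the adult and 5.31 to 5.44 at P7, without overlap. The part of all these cells in the fall of the replication genes was not tested.

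The size of the fall was compared between the regions as the regional difference, callosum minus cortex, in the adult minus that at P7. None of the 46 genes passed this test, where 0.203% of all genes did. An unadjusted p under 0.05 was found for 7 of the 46, or 15.2%, against 7.34% of all genes. The estimated fall was larger in cortex for 33 of the 46 genes and in callosum for 13, where 51.2% of all genes had an estimate on the cortex side. Without P7 callosum replicate 1 it was larger in cortex for 23 genes and in callosum for 23, and the median of the 46 genes was 0.0123, against 0.10 with all arrays; under the alternatives that kept this array, 9 to 17 genes were on the callosum side. The intervals included 0 for 39. Gins4 had the lowest p, with -0.49 ± 0.16 (adjusted p = 0.437), followed by E2f7 with 0.72 ± 0.25 (adjusted p = 0.473). Over the 46 genes the 95% intervals had a median width of 0.96 and reached from -0.91 to 1.42, which is how far 3 arrays a group bound a difference between the regions.

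**Figure D3:**
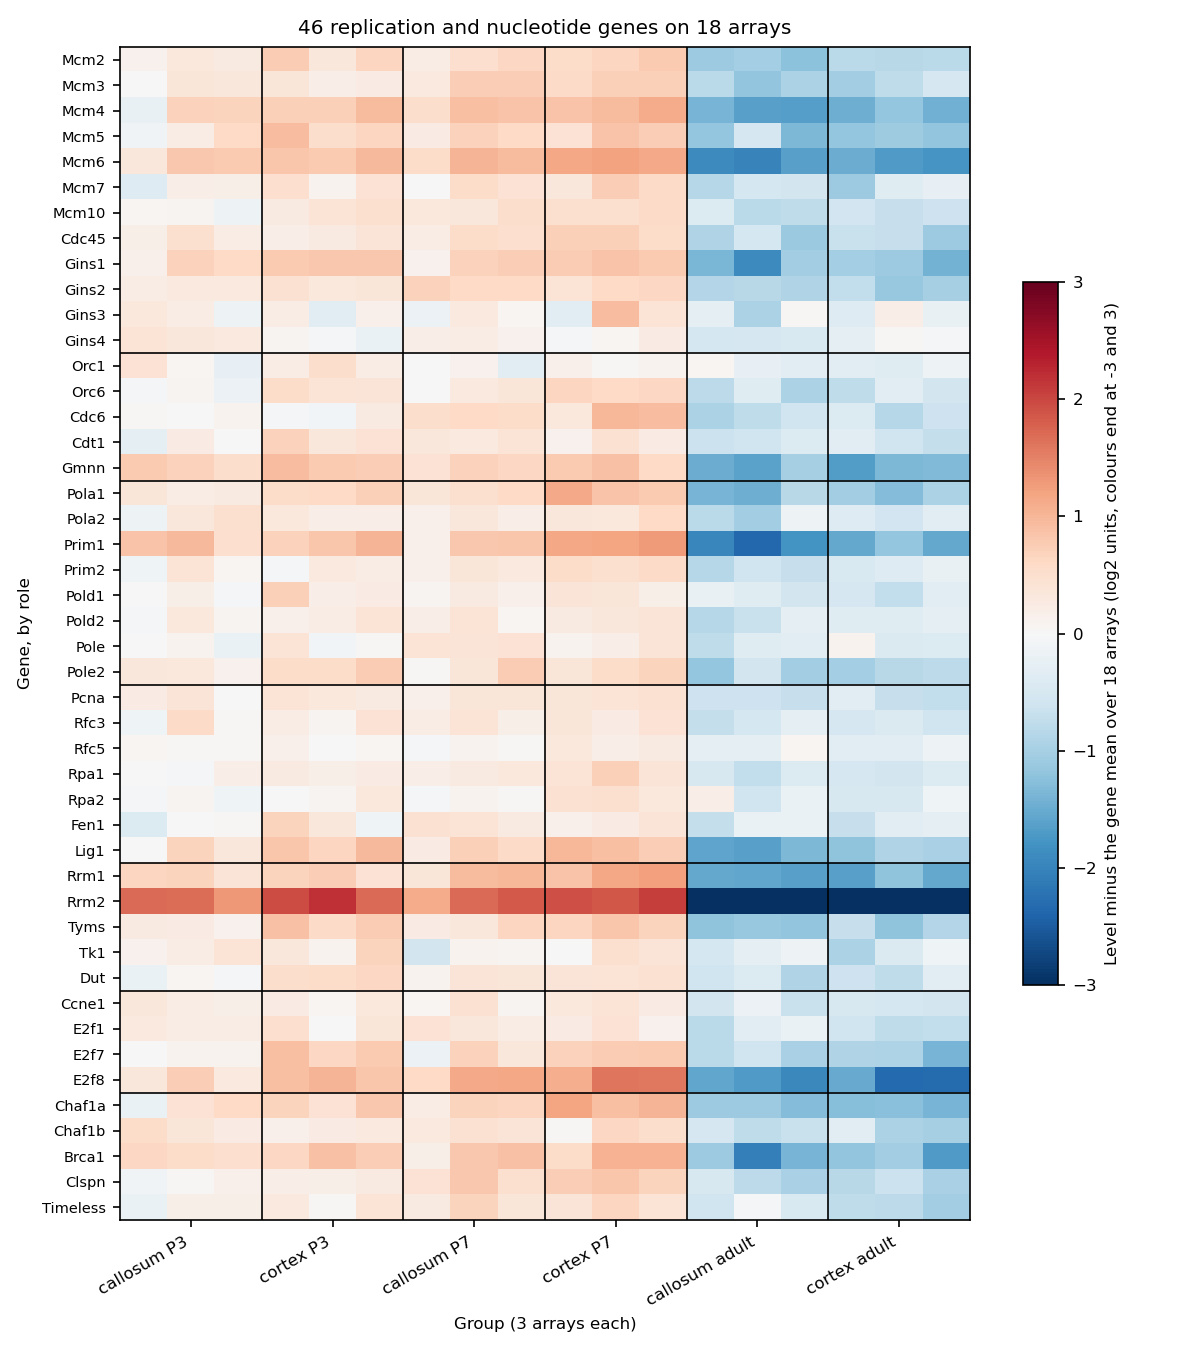
Level of each of the 46 genes on each of the 18 arrays, as the deviation (log2) from the gene's mean over all arrays, with genes in rows by role and arrays in columns by age and region. The adult columns are low for most genes, and the P3 and P7 columns are high in both regions.

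P7 and P3 microglia gave 1 call among the replication genes. In callosum 0 of 46 were called, against 0.739% of all genes. At an unadjusted p under 0.05, 11 of the 46 were higher there, or 23.9%, against 6.67% of all genes. In cortex 1 was called, Cdc6, which is 2.17% of the 46, against 0.884% of all genes. There 9 were higher at an unadjusted p under 0.05, or 19.6%, against 6.48% of all genes. The 95% intervals of the 46 genes lay between -0.82 and 0.95 in callosum and between -0.57 and 1.05 in cortex. The P3 arrays carry another label prefix than the P7 and adult arrays, and the labels do not say what it marks. Age and label prefix cannot be told apart here.

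Cdc6 read 6.22, 6.90 and 6.81 in P7 cortex, against 5.86, 5.81 and 6.15 in P3 cortex. The P7 arrays lay above the P3 arrays without overlap, and the difference was 0.70 ± 0.16 (adjusted p = 0.0484). The call was lost in 6 of 15 alternative settings, among them those without P7 cortex replicate 2 or 3 or P3 cortex replicate 1 or 2. In callosum its P7 arrays read 6.42, 6.49 and 6.43 and its P3 arrays 5.92, 5.91 and 5.99, a difference of 0.50 ± 0.16 (adjusted p = 0.154).

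The lowest p in callosum was that of Clspn, at 0.54 ± 0.14 (adjusted p = 0.0776). It read 6.80, 7.15 and 6.84 at P7 and 6.25, 6.39 and 6.52 at P3, without overlap, and it passed without P3 callosum replicate 3. Mcm10 came next at 0.41 ± 0.12 (adjusted p = 0.128), with 6.61, 6.65 and 6.84 at P7 and 6.35, 6.38 and 6.14 at P3. Differences were above 0 for 36 of the 46 genes in callosum and 33 in cortex, where 49.9% and 51.3% of all genes were above 0. The medians were 0.19 in callosum and 0.14 in cortex, and -8.02e-04 in callosum and 0.00708 in cortex over all genes. The callosum median was 0.10 without P3 callosum replicate 1 and 0.11 without P7 callosum replicate 2, and the cortex median 0.08 after quantile normalization and 0.09 without P7 cortex replicate 3.

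Microglia of the callosum and of the cortex were compared at each age. None of the 46 genes was called at P3, at P7 or in the adult, against 0.505%, 0.451% and 0.00451% of all genes. At an unadjusted p under 0.05, 14 genes were lower and 1 higher in callosum at P3, 10 were lower and 0 higher at P7, and 5 were lower and 1 higher in the adult. Genes lower in this way made up 30.4%, 21.7% and 10.9% of the 46 at the 3 ages, against 5.16%, 2.91% and 4.35% of all genes. Those higher made up 2.17%, 0% and 2.17% of the 46, against 7.68%, 3.97% and 4.16% of all genes. The differences nevertheless leaned to the side of lower levels in callosum in young mice. The 3 proliferation genes Mki67, Top2a and Cdk1 had a mean of 8.88 to 8.93 on the callosum arrays and 9.36 to 9.61 on the cortex arrays at P3, without overlap. At P7 the means were 8.72 to 9.57 on the callosum arrays and 9.58 to 9.82 on the cortex arrays. The P7 groups nearly touched, at 9.573 on callosum replicate 3 and 9.579 on cortex replicate 1. P7 callosum replicate 1 gave the 8.72, and replicate 2 read 9.47. The part of proliferation in the lean was not tested.

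At P3, 40 of the 46 differences were below 0, at P7 also 40, and in the adult 29, where 48.1%, 49.2% and 48.2% of all genes were below 0. The medians were -0.18 at P3, -0.20 at P7 and -0.06 in the adult, and 35 genes were below 0 at both P3 and P7. Genes of a pathway are not independent of each other, so these counts have no test. The median at P7 was -0.10 without replicate 1 of P7 callosum, which gave the lowest of the 3 callosum values for 37 of the 46 genes. This array also had the highest neutrophil marker mean of its group, and a link between these features was not tested.

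Dut had the lowest p at P3. Its callosum arrays read 7.24, 7.51 and 7.42 and its cortex arrays 7.98, 7.996 and 8.08. They did not overlap, and the difference of -0.63 ± 0.14 just missed the threshold, at an adjusted p of 0.0503. It passed in 4 of 15 alternative settings. E2f7 read 5.82, 5.90 and 5.90 in P3 callosum and 6.70, 6.42 and 6.58 in P3 cortex, a difference of -0.69 ± 0.18 (adjusted p = 0.0950).

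At P7 Prim1 had the lowest p, with 6.63, 7.29 and 7.30 in callosum and 7.64, 7.65 and 7.76 in cortex. The difference was -0.61 ± 0.19 (adjusted p = 0.296). Chaf1a followed with -0.52 ± 0.18 (adjusted p = 0.390). The callosum arrays of both genes lay below the cortex arrays, and those of Prim1 spread over more of the scale.

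In the adult, the lowest p were those of Gins4, with a difference of -0.40 ± 0.11 (adjusted p = 0.385), and Prim1, with -0.62 ± 0.19 (adjusted p = 0.424), and neither passed. The 95% intervals of the 46 genes lay between -1.07 and 0.69 at P3, -1.01 and 0.53 at P7, and -1.02 and 0.83 in the adult. The callosum arrays all lay below the cortex arrays for 15 genes at P3, 14 at P7 and 5 in the adult. These are 32.6%, 30.4% and 10.9% of the 46, against 6.67%, 7.76% and 6.07% of all genes. Gins1, Orc6, Pola1 and Tyms were among these at both P3 and P7.

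At P3 the callosum arrays also differed from the cortex arrays in other markers. Neuron markers were lower for 2 of 9, with array means of 5.68 to 6.28 in callosum and 6.32 to 6.68 in cortex, and border macrophage markers were higher for 2 of 7, with 6.76 to 7.27 in callosum and 6.28 to 6.90 in cortex. At P7, 1 of 7 border macrophage markers was higher, with 7.000 to 7.12 in callosum and 6.68 to 7.08 in cortex. At P7 the marker means of microglia were 10.40 to 10.74 in callosum and 10.84 to 10.91 in cortex, those of neurons 5.69 to 5.72 in callosum and 5.87 to 5.95 in cortex, those of monocytes 5.04 to 5.14 in callosum and 5.17 to 5.35 in cortex, and those of oligodendrocyte precursors 5.497 to 5.61 in callosum and 5.36 to 5.46 in cortex. The first 3 were lower and the last higher in callosum, without overlap. At P3 the microglial means were 10.33 to 10.55 in callosum and 10.54 to 10.71 in cortex and overlapped. Oligodendrocyte means at P3 were 5.79 to 5.86 in callosum and 5.61 to 5.72 in cortex, and lymphocyte means 4.59 to 4.63 in callosum and 4.71 to 4.85 in cortex, both without overlap. Adult border macrophage means were 5.51 to 5.57 in callosum and 5.39 to 5.46 in cortex, also without overlap. The means of lists not named for an age overlapped there, and these differences between list means have no test. The part of these cells in the regional differences was not tested. Of the companion lists, the 1 gene called between the regions was Samhd1, higher in P3 callosum by 0.55 ± 0.12 (adjusted p = 0.0384).

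**Figure D4:**
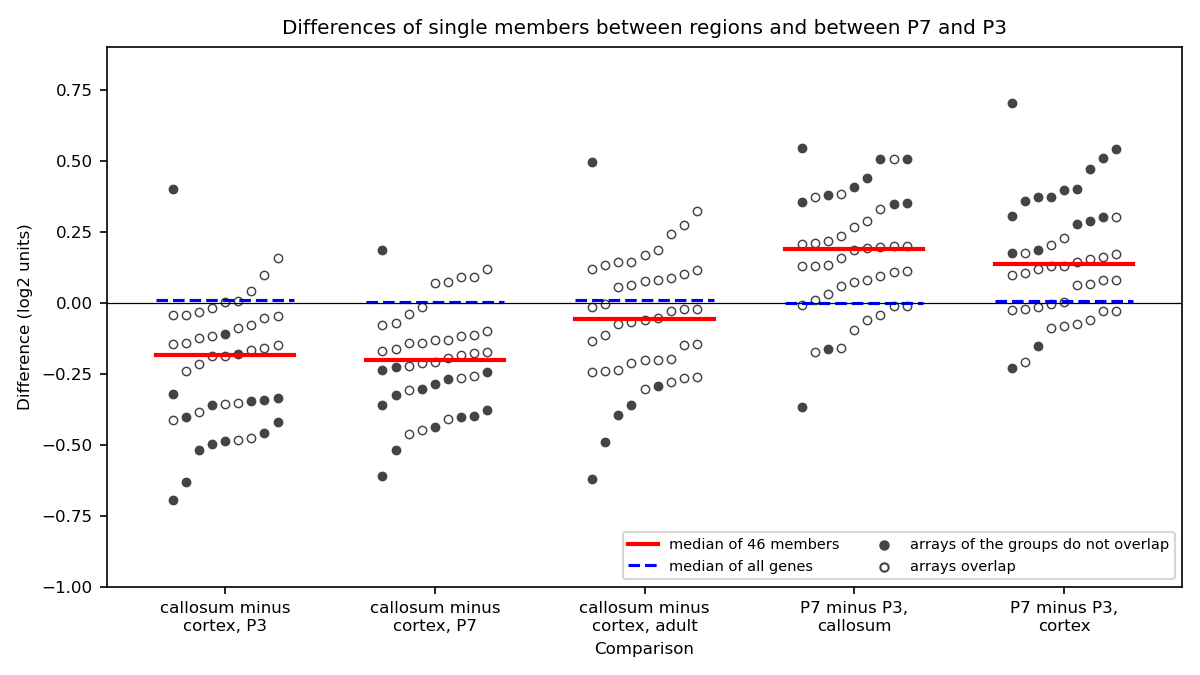
Differences (log2) of the 46 genes between corpus callosum and cortex at each age and between P7 and P3 in each region, 1 point per gene, filled where the arrays of the groups do not overlap, with the median of the 46 genes (solid line) and of all genes (dashed line). The medians lie at -0.18, -0.20 and -0.06 for the regions at P3, P7 and in the adult, and above 0 for P7 against P3.

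The regional difference was set between the other pairs of ages too. As P7 minus P3 it passed for 0 of 46 genes and for 0% of all genes. An unadjusted p under 0.05 was found for 2 of the 46, or 4.35%, against 5.68% of all genes. The lowest p were those of Cdt1, with 0.56 ± 0.21 (adjusted p = 0.868), and Dut, with 0.50 ± 0.20 (adjusted p = 0.868). As adult minus P3 the regional difference passed for 0 of 46 genes and 0.18% of all genes. Here 9 of the 46, or 19.6%, had an unadjusted p under 0.05, against 13.7% of all genes. Gins4 came closest, with -0.79 ± 0.16 (adjusted p = 0.0531), and it passed in 5 of 22 alternative settings, 2 of which left out adult cortex replicate 1 or adult callosum replicate 3. E2f7 was next, with 0.97 ± 0.25 (adjusted p = 0.111). Its difference between callosum and cortex was 0.27 in the adult and -0.69 at P3. In both of these pairs the ages carry different label prefixes, so age and label prefix cannot be told apart.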

How the data were processed

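The arrays were made from microglia of C57Bl/6 mice, whose RNA was amplified with the Ovation PicoSL kit and labelled with the Encore Biotin Module, per the labels' protocols. The authors deposited 1 value per probe set for 41345 probe sets on 18 arrays, made with RMA, per the submitters' processing notes. The deposited values were taken as log2: no source gives the base, and they run from 0.87 to 13.8. RMA makes the distributions of the arrays alike, so a change of total RNA per cell is not visible, and it compresses large differences. For its version and the array annotation, the sources used here give nothing.

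GEO's platform annotation gives 23521 probe sets 1 symbol, 1814 several and 16010 none. Only the first were used, the brightest per gene, which left 22180 genes. RefSeq tables of GRCm38.p6 matched 23328 probe sets, gave 0 new symbols and supplied the promoter windows, the first listed per gene.

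A mean per group was fitted to all 18 arrays in limma 3.58.1 under R 4.3.3 with 12 residual degrees of freedom and eBayes without trend. Groups came from the labels. The 10 comparisons were those of region at each age, of consecutive ages in each region, and of the regional difference between ages. Tests were two-sided with Benjamini-Hochberg adjustment over all genes. The fit was tested on simulated data. The 48 genes, the companion and marker lists and the tests were chosen with earlier results of these data known. Array values are given for up to 2 called genes of each role and direction with the largest difference. They are also given for some genes among the 2 of lowest p in comparisons without calls, and for some genes not called in a region. Companion genes named are up to 3 called per direction. The number of arrays limits the precision. Alternatives were another normalization, a filter on dim genes, other variance settings, other choices of probe set, a replicate block, smaller fits and leaving out arrays.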

Additional observations from a re-analysis of the deposited data

Results flagged for a closer look

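Gins4, a subunit of the GINS complex, had a regional difference (callosum minus cortex) of opposite sign at P3 and in the adult. At P3 the callosum arrays read 8.33, 8.27 and 8.23 and the cortex arrays 8.004, 7.90 and 7.73, all higher in callosum. In the adult the callosum arrays read 7.40, 7.43 and 7.48 and the cortex arrays 7.66, 7.96 and 7.89, all lower in callosum. The adult difference minus the P3 difference was -0.795 log2 units, and its test gave an adjusted p of 0.0531 in limma, just over the threshold. Age and label prefix coincide between P3 and the adult.

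Dut, the enzyme that removes dUTP, differed between P7 and P3 in opposite directions in the regions. In callosum it read 7.55, 7.83 and 7.82 at P7 and 7.24, 7.51 and 7.42 at P3, all higher at P7. In cortex it read 7.83, 7.86 and 7.91 at P7 and 7.98, 7.996 and 8.08 at P3, all lower at P7. The regional difference at P7 minus that at P3 was 0.499 log2 units, with an adjusted p of 0.868, which did not pass. Age and label prefix coincide between P3 and P7.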

How the results depend on the processing

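The fall from P7 to the adult held in number: the 46 genes gave 41 calls in callosum (40 to 41 without single arrays, 41 otherwise) and 42 in cortex (40 to 42 without single arrays, 41 to 43 otherwise), all lower. Of these, 39 calls in callosum and 40 in cortex held under every alternative; Fen1 and Pold1 were lost under some in callosum, and Fen1 and Tk1 in cortex. The Orc1 difference in callosum ranged from -0.23 to 0.0021 without single arrays (adjusted p = 0.996 in limma without P7 callosum replicate 2). Between the regions at P3, 1 member was called lower after quantile normalization, with trended and robust variance or with the mean over probe sets, and 2 after the filter on dim genes, which kept 12461 genes and all 46 members. Between P7 and P3 in cortex, the single call became 2 with array weights and 0 with only the compared arrays or without replicate 1 of P7 callosum and replicate 3 of P3 callosum together, a setting chosen after seeing the data, and 0 to 1 without single arrays. In callosum it became 1 after the dim filter and 0 to 1 without single arrays. The regional difference, adult minus P3, gave 1 member after the dim filter, with trended variance or with array weights, and 0 to 1 without single arrays. No other alternative moved a member count beyond these values, and the cause of these shifts was not tested.

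Counts over all genes moved more (main count, then the range over alternatives): 112 (16 to 251), 100 (40 to 236) and 1 (0 to 3) for the regions at P3, P7 and in the adult, 164 (5 to 506) and 196 (72 to 644) for P7 against P3 in callosum and cortex, 3822 (2917 to 4438) and 2264 (1567 to 3861) for adult against P7, and 0 (0 to 1), 45 (10 to 105) and 40 (0 to 176) for the regional differences, P7 minus P3, adult minus P7 and adult minus P3. Same-numbered arrays deviated from their group means with correlations of -0.02 to 0.30, over 0.1 for all 3 pairs in no comparison, so the number was not taken as a pairing, although at P7 and in the adult each callosum array correlated best with the cortex array of its number, as a hint from the data. With the replicate number as a block, member counts were the same in all 10 comparisons. All genes then gave 4038 calls in callosum and 2375 in cortex for adult against P7, and 24 for the regional difference, adult minus P3. The block gave each replicate number a shared effect over all ages and both regions. It therefore does not test a pairing of callosum and cortex within an age, and no such pairing was fitted. The 46 genes' medians kept their sign under the alternatives except for the regional difference, P7 minus P3 (-0.07 to 0.10). The signal of the dimmest adult values was not told apart from background.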
